A study of Mus musculus with 2 samples.

Results

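The genes described here are 52 mouse genes of DNA replication and mitosis, chosen by symbol from a fixed list and read in 2 libraries of C2C12 cells, among 21829 genes in all. C2C12 is an immortalised mouse myoblast line that divides in growth medium with serum. The WT library came from WT cells. The KO-labelled library came from GNE KO cells, a line grown from a single clone after CRISPR–Cas9 editing of Gne, which encodes the enzyme that starts sialic acid synthesis. The methods describe a small insertion or deletion near the start of the coding sequence that leaves a truncated protein. Both lines grew in DMEM with serum and gentamicin, with no differentiation step named in the labels, and each line had 1 library, so no difference between them has a replicate check and no test was possible. Differences that came with the growth of 1 clone and differences due to the edit cannot be told apart.

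A cell that divides loads the MCM helicase onto replication origins in G1, fires the origins and copies its DNA in S phase, and then builds a spindle and separates the copies in mitosis. E2F transcription factors are released from Rb family proteins by cyclin-dependent kinases, Cdk2 with cyclin E among them, and switch on the replication genes. A later wave driven by Foxm1 and Mybl2 switches on the mitotic genes. Myoblasts turn these genes off when they leave the cell cycle to fuse into muscle fibres, so that the genes also serve as markers of proliferation. In a bulk library, fewer cells in a phase of the cycle and less RNA of a gene per cell cannot be told apart.

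The values are fragments per kilobase of transcript and per sequencing depth (FPKM), as inferred from the files, and levels of genes of unlike length can be set side by side on this scale. Summed over all genes the values came to 568410 in WT and 574144 in the KO-labelled library, and the number of reads is unknown. A log2 fold change means log2((KO + 1)/(WT + 1)), so that a positive value is higher in the KO-labelled library. It was computed where the mean of both values reached 1 FPKM, in 10542 genes, whose median was 0.0061. All 52 genes passed this filter and also averaged 5 FPKM or more. Gne itself had 6.67 FPKM in WT and 7.34 FPKM in the KO-labelled library, so its RNA does not tell which library carries the edit. Of the myoblast markers, Myod1 was 59.97 FPKM in WT and listed at 0 in the KO-labelled library, Des was 97.6 and 3.84 FPKM and Cdh15 was 16.6 and 0.70 FPKM, whereas Myf5 had 9.14 and 20.3 FPKM and Pax7 was listed at 0 in both. The 6 markers of differentiated muscle lay between 0.0090 and 1.84 FPKM in WT and between 0 and 3.93 FPKM in the KO-labelled library. Their part in the values below was not tested.

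The promoters of the replication and mitosis genes carry short sequence motifs that are known binding sites of cell cycle regulators. Stretches before 4 transcription starts are shown for what their owners represent. Mcm6 is the MCM subunit with the largest difference between the libraries, Rrm2 and Cdk1 are the members furthest down and furthest up, and Cdc20 has the arrangement usual for mitotic genes. Each stretch is the 150 bases before the start, 5′ to 3′ on the gene's strand, from RefSeq on GRCm38.p6. Capitals mark the motifs GGCGC and TTCGCGC, known as E2F sites, TTTGAA and TTTAAA, known as the cell cycle genes homology region (CHR) and a variant of it, and CCAAT, the box bound by NF-Y, each on either strand. GGCGC and TTCGCGC can share bases.
Mcm6, minus strand, chr1:128359706-128359855: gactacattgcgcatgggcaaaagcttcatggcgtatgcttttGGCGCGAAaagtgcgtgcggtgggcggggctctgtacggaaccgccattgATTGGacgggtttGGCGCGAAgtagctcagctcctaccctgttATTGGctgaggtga
Rrm2, plus strand, chr12:24708104-24708253: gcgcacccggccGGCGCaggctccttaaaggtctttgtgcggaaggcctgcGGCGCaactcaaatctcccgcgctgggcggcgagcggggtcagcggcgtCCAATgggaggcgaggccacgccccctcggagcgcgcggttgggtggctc
Cdk1, minus strand, chr10:69352913-69353062: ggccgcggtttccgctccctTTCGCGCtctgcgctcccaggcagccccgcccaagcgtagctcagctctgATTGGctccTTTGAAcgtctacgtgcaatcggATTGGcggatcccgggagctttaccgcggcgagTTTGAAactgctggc
Cdc20, minus strand, chr4:118437344-118437493: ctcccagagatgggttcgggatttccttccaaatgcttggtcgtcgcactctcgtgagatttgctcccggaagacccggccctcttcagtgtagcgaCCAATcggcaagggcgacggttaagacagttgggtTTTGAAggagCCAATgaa
The Mcm6 stretch holds 2 copies of TTCGCGC, each sharing bases with a GGCGC, and 2 CCAAT boxes. The Cdk1 stretch holds 2 copies of TTTGAA, 2 CCAAT boxes and 1 TTCGCGC, and its TTTGAA closest to the start ends 9 bases before it. In Cdc20, 1 TTTGAA ends 12 bases before the start and lies between 2 CCAAT boxes. The Rrm2 stretch holds 2 copies of GGCGC and 1 CCAAT, and no copy of the other motifs.

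RefSeq windows from 250 bases before to 50 after the start were given for 40 of the 52 genes, as 44 windows. Mcm4, Gmnn, Gins1, Gins2, Gins4, Pole, Ccna2, Ccne2, Cdc25c, Aurkb, Kif20a and Foxm1 had none. The 52 genes were divided into 34 G1/S genes, which act in replication or its onset, and 18 G2/M genes, which act from late S phase to mitosis. Mybl2 was counted with the G1/S genes, although it drives the mitotic wave together with Foxm1. TTTGAA was in 9 of the 13 G2/M windows (69.2%) and in 3 of the 31 G1/S windows (9.68%), against 17.9% of all 32851 promoter windows and 11.7% of the windows of genes past the filter. All 9 G2/M windows with TTTGAA also held CCAAT, a pair found in 6.95% of all windows and 4.81% of those of genes past the filter. These genes were Aurka, Bub1b, Ccnb2, Cdc20, Cdk1, Kif11, Mki67, Plk1 and Top2a, whereas the windows of Birc5, Bub1, Ccnb1 and Mad2l1 did not hold it. TTCGCGC was in 6 of the 31 G1/S windows (19.4%), those of Fen1, Lig1, Mcm5, Mcm6, Mcm7 and Rfc3, and in 1 of 13 G2/M windows, that of Cdk1, against 1.59% of all windows and 3.26% of those of genes past the filter. The shorter GGCGC was in 74.2% of G1/S and 69.2% of G2/M windows, against 36.9% of all windows and 65.0% of those of genes past the filter. TTTAAA was in 12.9% and 30.8%, against 13.2% of all windows and 9.11% of those of genes past the filter. CCAAT was in 51.6% of G1/S and 84.6% of G2/M windows, against 37.4% of all windows and 38.1% of those of genes past the filter. Of the 141 other pathway genes described further on, 120 had windows, 142 in all, which held TTTGAA in 41.5% of cases and CCAAT in 59.2%. A match of letters is a description and not a measured binding site.

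**Figure D1:**
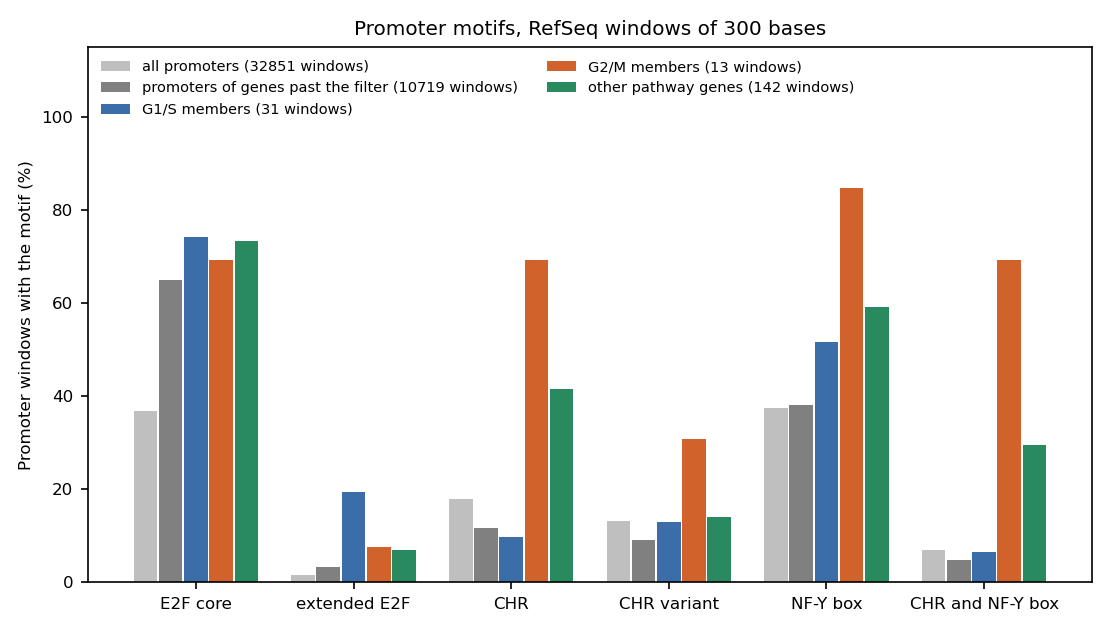
Share of promoter windows (percent, vertical axis) that hold each motif on either strand, for all RefSeq windows, windows of genes past the filter, G1/S and G2/M members and other pathway genes. E2F core is GGCGC, extended E2F is TTCGCGC, CHR is TTTGAA, CHR variant is TTTAAA and NF-Y box is CCAAT. The CHR bar stands at 69.2% for G2/M and 9.68% for G1/S members.

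The comparison of KO against WT asked how the RNA of the replication and mitosis genes differed between the lines. The genes lay close together in the 2 libraries. Of the 52 genes, 0 were more than 2-fold higher in the KO-labelled library, against 2.84% of all genes tested, and 0 were 2-fold lower or further down, against 3.43%. More than 1.5-fold higher were 0 of 52, against 7.68% of all genes, and more than 1.5-fold lower were 2 of 52 (3.85%), Rrm2 and Ccne2, against 7.50% of all genes. In the 8572 genes averaging 5 FPKM or more, a level that all 52 reached, the shares were 1.69% and 2.58% beyond 2-fold and 5.88% and 6.10% beyond 1.5-fold. At such shares a list of 52 genes would hold few genes beyond 2-fold, so the counts of 0 tell little. The list was also chosen with earlier results of these data known. By sign alone 22 members were higher and 30 lower, against 50.7% and 49.3% of all genes. The median log2 fold change of the members was -0.021, and their interquartile range was 0.28 wide, against 0.44 for all genes and 0.41 for those averaging 5 FPKM or more. The interquartile range of all genes, from -0.21 to 0.23, held 37 of the members (71.2%), while 9 members lay below it and 6 above. It held 50.0% of all genes, 52.9% of those averaging 5 FPKM or more and 66.0% of the 141 other pathway genes described further on. The median WT level was 45.7 FPKM for the members and 20.5 FPKM for the genes averaging 5 FPKM or more, so these sets were not matched in level.

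Levels spanned from Gins2 at 7.73 FPKM to Rrm2 at 441 FPKM in the WT library, with a median of 45.7 FPKM over the members, and from Mcm10 at 10.1 FPKM to Rrm2 at 268 FPKM in the KO-labelled library, with a median of 42.9 FPKM. The order of the genes by level was nearly the same. Across the 52 genes, which share the 2 libraries and are not replicates, Pearson's r of log2 levels was 0.98 and Spearman's rho was 0.98. These values were not computed for other genes, so they show nothing particular to the list. The place in the order moved by at most 5 for 48 genes and by at most 8 for any, the largest move being that of Gmnn. The summed level of the members was 3431 FPKM in WT and 3300 FPKM in the KO-labelled library, which are 0.604% and 0.575% of all values. Rrm2 alone accounted for a difference of -173 FPKM, more than the -131 FPKM of the whole sum, and without it the sums were 2989.5 and 3032 FPKM.

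**Figure D2:**
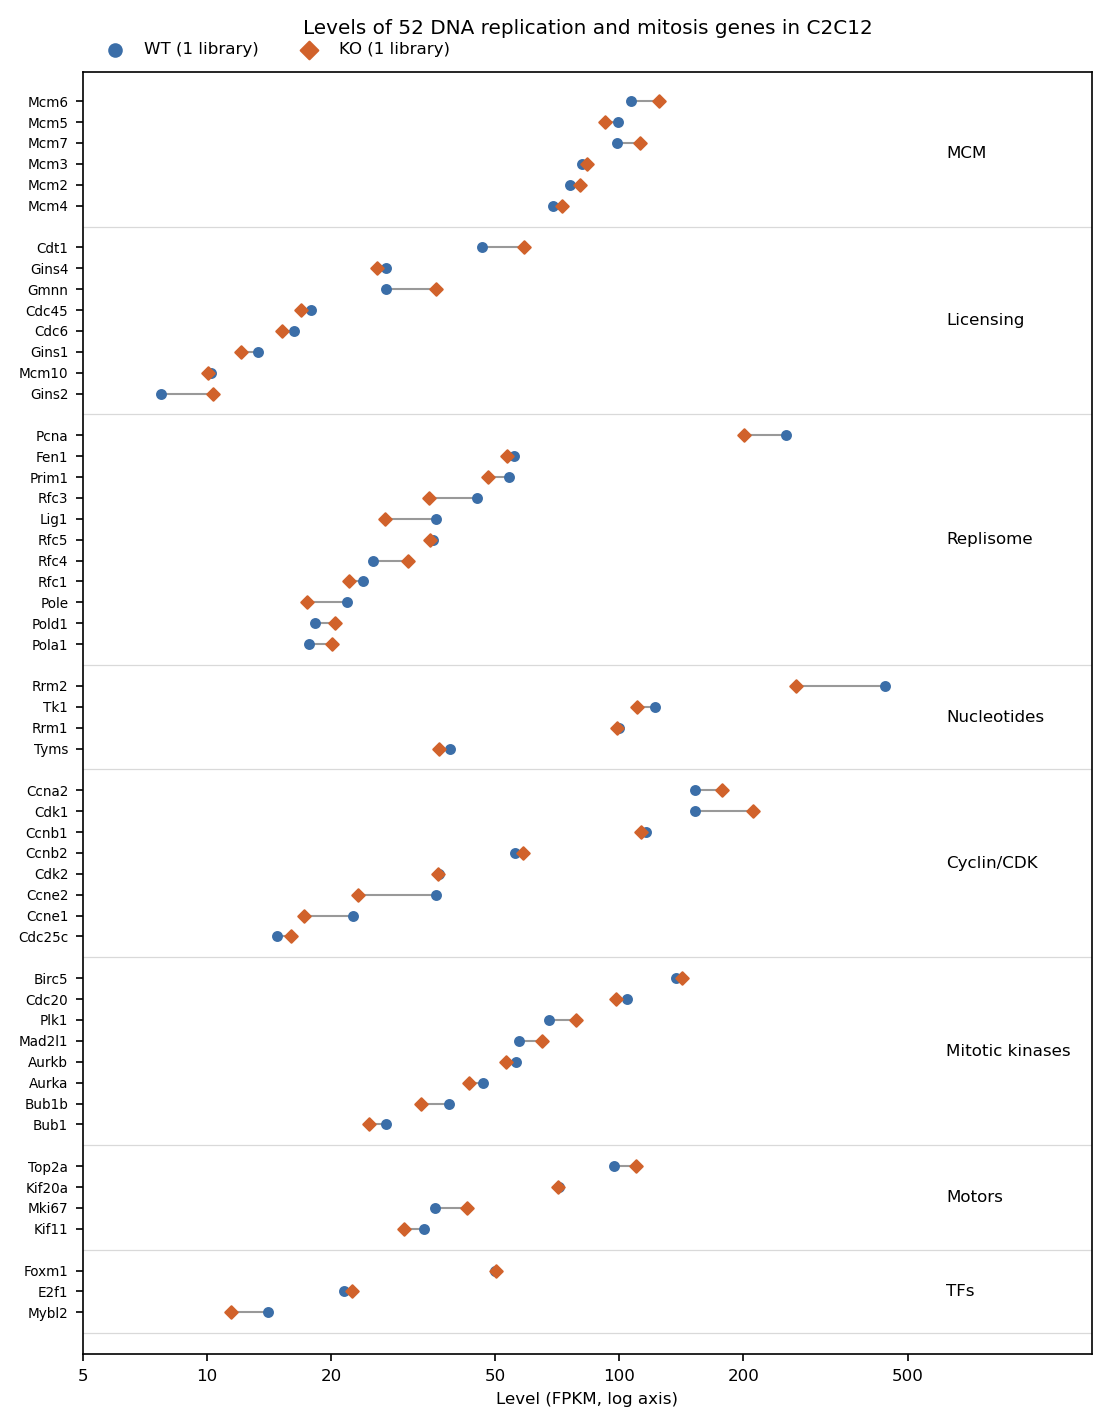
Level of each of the 52 genes in FPKM (horizontal log axis) in the WT library (circles) and the KO-labelled library (diamonds), in 8 role lists, each ordered by the WT level. The 2 marks of most genes lie close together, and Rrm2, at 441 and 268 FPKM, has the longest line.

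Levels are given below in FPKM, first for the WT library and then for the KO-labelled library. Mcm2 to Mcm7 form the ring that unwinds DNA at the replication fork, 1 copy of each per ring. Mcm2 was 76.1 and 80.2 FPKM. Mcm3 was 81.3 and 83.6 FPKM. Mcm4 was 69.2 and 72.7 FPKM. These 3 subunits differed by log2 fold changes of 0.07, 0.04 and 0.07. Mcm5, the only MCM subunit of the 6 with a lower value in the KO-labelled library, was 99.1 and 92.1 FPKM. Mcm6 was 107 and 125 FPKM, a log2 fold change of 0.23, just inside the interquartile range of all genes. Mcm7 was 98.8 and 112 FPKM. The level of the highest subunit over that of the lowest was 1.54 in WT and 1.72 in the KO-labelled library, so the 6 RNAs stayed within a narrow band in both.

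Origin licensing and helicase activation held the members that were furthest up in the replication group. Cdt1, which loads the MCM ring, was 46.4 and 58.7 FPKM, a log2 fold change of 0.33. Gmnn (geminin), the inhibitor of Cdt1, was 27.2 and 35.9 FPKM, a log2 fold change of 0.39. The level of Gmnn over that of Cdt1 was therefore similar, 0.587 and 0.612. Cdc6, which works with Cdt1 in loading, was 16.2 and 15.2 FPKM. Mcm10, needed to start unwinding, was 10.2 and 10.1 FPKM. Cdc45, which joins MCM and GINS in the active helicase, was 17.9 and 16.9 FPKM. The last 3 genes lay within a log2 fold change of 0.1 of 0. Of the GINS subunits among the members, Gins1 was 13.3 and 12.1 FPKM, Gins2 was 7.73 and 10.4 FPKM, and Gins4 was 27.2 and 25.9 FPKM. Gins2, the lowest of all members in the WT library, had a log2 fold change of 0.38, and the other two had -0.13 and -0.07.

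The replisome list of 11 genes had 8 lower and 3 higher values in the KO-labelled library, against 49.3% and 50.7% of all genes. Its median log2 fold change was -0.11. Pcna, the sliding clamp, was 254 and 200.3 FPKM, a log2 fold change of -0.34. Fen1, which trims Okazaki fragments, was 55.6 and 53.4 FPKM. Lig1, the ligase that joins those fragments, was 36.0 and 27.0 FPKM, a log2 fold change of -0.40. Pcna and Lig1 were thus below the interquartile range of all genes while Fen1, which acts with them, was inside it. Among clamp loader subunits, Rfc1 was 23.9 and 22.1 FPKM, Rfc3 was 45.1 and 34.5 FPKM, Rfc4 was 25.3 and 30.7 FPKM, and Rfc5 was 35.3 and 34.8 FPKM. Rfc3 and Rfc4 lay on opposite sides, at log2 fold changes of -0.38 and 0.27. Of the catalytic polymerase subunits, Pola1 (polymerase alpha) was 17.7 and 20.1 FPKM and Pold1 (polymerase delta, lagging strand) was 18.3 and 20.4 FPKM. Pole (polymerase epsilon, leading strand) was 21.8 and 17.5 FPKM, a log2 fold change of -0.31. Prim1, the primase that begins each fragment, was 54.1 and 48.1 FPKM. The 3 polymerases were thus close in level in both libraries, and only Pole among them lay outside the interquartile range.

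All 4 nucleotide supply genes were lower in the KO-labelled library, against 49.3% of all genes. Only Rrm2 among them lay outside the interquartile range of all genes. Rrm1, Tyms and Tk1 had log2 fold changes of -0.015, -0.090 and -0.14. Rrm2, the S phase subunit of ribonucleotide reductase and the most abundant member in both libraries, was 441 and 268 FPKM. That is 39.3% lower, with a log2 fold change of -0.72, and it was furthest from 0 of the 52 genes. Rrm2 lies on chromosome 12 of GRCm39 from 24757811 to 24764145. Rrm1, the large subunit of the same enzyme, was 99.8 and 98.8 FPKM. The level of Rrm2 over that of Rrm1 was therefore 4.42 in WT and 2.71 in the KO-labelled library. Tk1, the thymidine kinase of dividing cells, was 122 and 110.2 FPKM. Tyms, the thymidylate synthase, was 38.9 and 36.5 FPKM. Both differed by less than the interquartile range of all genes.

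Cyclins and their kinases included members at both ends of the order. Cdk1, the kinase that drives entry into mitosis, was 152 and 210.5 FPKM, a log2 fold change of 0.47, furthest up of all members. It lies on chromosome 10 of GRCm39 from 69170976 to 69236595. Its partner Ccnb1 was 116 and 113 FPKM, and Ccnb2 was 55.8 and 58.3 FPKM. The level of Cdk1 over that of Ccnb1 was thus 1.31 in WT and 1.86 in the KO-labelled library. Ccna2, the cyclin of S and G2 phase, was 153 and 177 FPKM. Cdc25c, a phosphatase that activates Cdk1, was 14.8 and 16.0 FPKM. The cyclins of the G1/S transition were both lower. Ccne2, on chromosome 4 of GRCm39 from 11190303 to 11204947, was 35.9 and 23.3 FPKM, a log2 fold change of -0.60. Ccne1 was 22.6 and 17.2 FPKM, a log2 fold change of -0.38. Their partner Cdk2 was 36.6 and 36.3 FPKM, which was nearly the same in the 2 libraries.

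The mitotic members lay in a narrow range. Birc5 (survivin) and Aurkb, both of the chromosomal passenger complex, were 137 and 142 FPKM and 56.3 and 53.1 FPKM. Aurka, the kinase of the spindle poles, was 46.7 and 43.1 FPKM. Plk1, a kinase with roles throughout mitosis, was 67.5 and 78.3 FPKM, a log2 fold change of 0.21. None of these 4 left the interquartile range of all genes. Cdc20, which activates the anaphase-promoting complex, was 104 and 98.0 FPKM. Of the checkpoint genes that hold it back, Bub1 was 27.2 and 24.8 FPKM, Bub1b was 38.6 and 33.0 FPKM, and Mad2l1 was 57.1 and 64.9 FPKM. Bub1b, at a log2 fold change of -0.22, was the G2/M gene furthest down. The motors Kif11, which pushes spindle poles apart, and Kif20a, which acts in cytokinesis, were 33.5 and 30.0 FPKM and 71.3 and 71.1 FPKM. Top2a, which untangles the copied chromosomes, was 96.8 and 109.8 FPKM. Mki67 (Ki-67), a coat of mitotic chromosomes used as a stain for dividing cells, was 35.7 and 42.6 FPKM, a log2 fold change of 0.25. Neither of these chromosome proteins was lower in the KO-labelled library.

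Of the transcription factors, Foxm1 was 50.0 and 50.1 FPKM, a log2 fold change of 0.0035. E2f1 was 21.5 and 22.4 FPKM. Mybl2 (B-Myb) was 14.1 and 11.5 FPKM, a log2 fold change of -0.28. The first 2 were thus nearly equal in the libraries.

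Grouped by phase, the 34 G1/S members had a median log2 fold change of -0.063, with 12 higher and 22 lower. The 18 G2/M members had a median of 0.026, with 10 higher and 8 lower. Of all genes, 50.7% were higher and 49.3% lower. The difference of the medians, G1/S minus G2/M, was -0.090, and it was -0.016 once the median of the genes within 5 Mb on the chromosome, described further on, was subtracted from each gene. Of the 9 members below the interquartile range of all genes, 8 were G1/S genes, namely Rrm2, Ccne2, Lig1, Ccne1, Rfc3, Pcna, Pole and Mybl2, and 1 was the G2/M gene Bub1b. Of the 6 above it, 4 were G1/S genes, Gmnn, Gins2, Cdt1 and Rfc4, and 2 were G2/M genes, Cdk1 and Mki67. Members with TTTGAA in their promoter window had a median log2 fold change of 0.0028 over 12 genes, and those without it had -0.031 over 28. For TTCGCGC the medians were -0.056 over 7 genes with it and -0.023 over 33 without it. The medians with and without TTTAAA were -0.11 over 8 genes and -0.017 over 32, those for GGCGC were -0.029 over 30 and -0.048 over 10, and those for CCAAT were -0.031 over 26 and -0.037 over 14. For each of the 5 motifs the ranges with and without it overlapped.

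**Figure D3:**
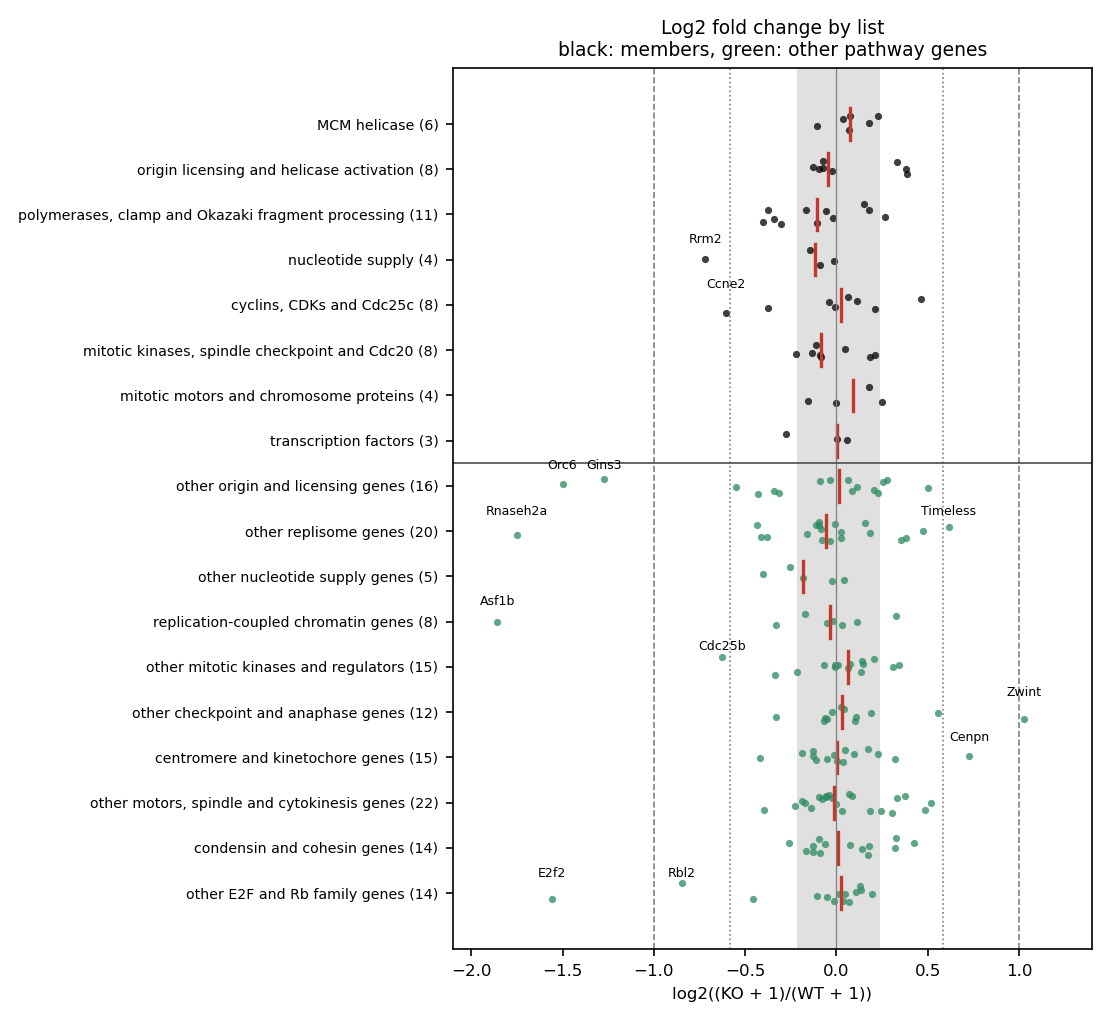
Log2 fold change (horizontal axis) of each gene in 18 lists, with the number of genes in brackets, a red bar at each list's median, the interquartile range of all genes tested shaded and lines at 1.5-fold (dotted) and 2-fold (dashed). Members, in black, stay between -0.72 and 0.47, while 5 other pathway genes lie beyond 2-fold lower and Zwint beyond 2-fold higher.

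A further 141 genes of the same pathways, in 10 lists, were read beside the members, and all 141 passed the filter. Their median log2 fold change was -0.0057. More than 2-fold higher was 1 gene (0.709%), against 2.84% of all genes, and more than 2-fold lower were 5 (3.55%), against 3.43%. At 1.5-fold the counts were 3 higher and 7 lower, against 7.68% and 7.50% of all genes. The medians of the 10 lists ran from -0.18 for other nucleotide supply genes to 0.062 for other mitotic kinases and regulators. Cenpa to Spc25, the centromere and kinetochore genes, had a median of 0.0023 over 15 genes, and the 14 condensin and cohesin genes had 0.0072. Neither list had a gene beyond 2-fold. Zwint, which also acts at the kinetochore, was in the list of checkpoint and anaphase genes and is described next.

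The 5 lower genes were Asf1b, Rnaseh2a, E2f2, Orc6 and Gins3. Asf1b, a histone chaperone of S phase, was 169 FPKM in WT and 46.1 FPKM in the KO-labelled library, a log2 fold change of -1.86. Rnaseh2a, the catalytic subunit of RNase H2, which removes ribonucleotides from DNA, was 99.7 and 28.9 FPKM, a log2 fold change of -1.75. Orc6, a subunit of the origin recognition complex, was 130.3 and 45.4 FPKM, a log2 fold change of -1.50. These 3 genes lie on chromosome 8 of GRCm39, between 84681589 and 86034912. Gins3, the GINS subunit that is no member, was 22.7 and 8.83 FPKM, a log2 fold change of -1.27, and lies on the same chromosome from 96360081 to 96392066. E2f2, an activating E2F, was 10.6 and 2.94 FPKM, a log2 fold change of -1.56, and lies on chromosome 4. The gene that was more than 2-fold higher was Zwint, a kinetochore protein encoded on chromosome 10, at 74.7 and 153 FPKM.

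Subunits of the same complex differed in their log2 fold changes. In GINS, the log2 fold changes ran from -1.27 for Gins3 to 0.38 for Gins2. Gins3 was the second most abundant of the 4 GINS RNAs in the WT library and the least abundant in the KO-labelled library. In the origin recognition complex, Orc6 stood at -1.50 and the other 5 subunits between -0.55, in Orc5, and 0.26, in Orc2. The level of the highest over the lowest of the 6 subunits was 21.5 in WT and 6.36 in the KO-labelled library, with Orc6 highest in both. In RNase H2, Rnaseh2a had -1.75, Rnaseh2b was 11.7 and 8.43 FPKM, a log2 fold change of -0.43, and Rnaseh2c was 21.9 and 22.4 FPKM. The MCM ring and the clamp loader had narrower ranges of log2 fold change, 0.33 and 0.73 wide.

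**Figure D4:**
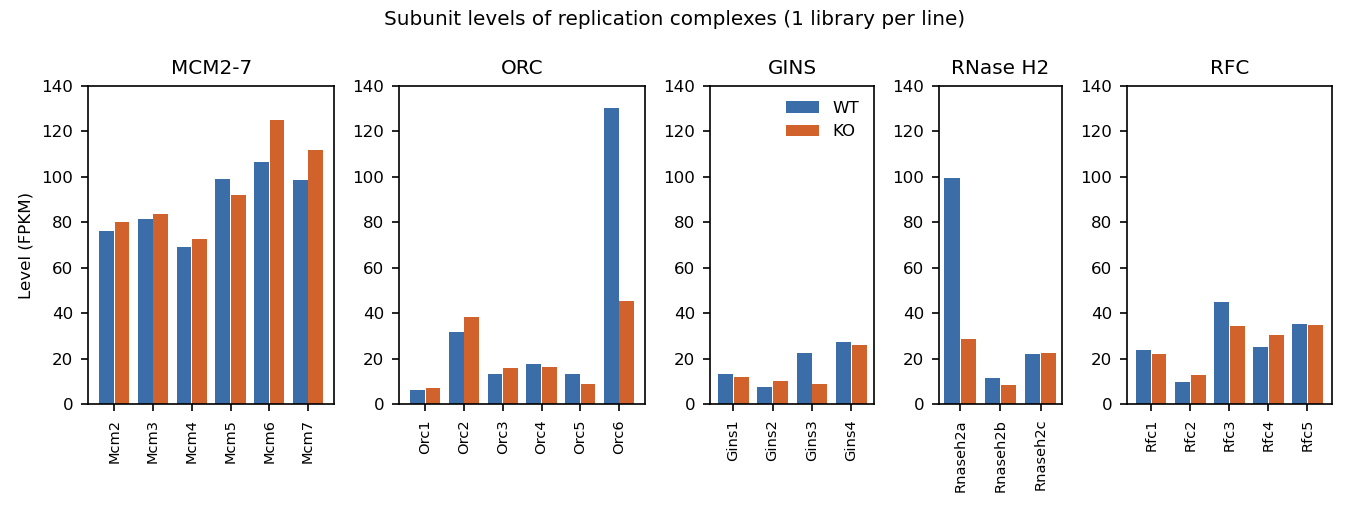
Level in FPKM (vertical axis, from 0) of each subunit of MCM2-7, the origin recognition complex (ORC), GINS, RNase H2 and the clamp loader (RFC) in the WT library (blue) and the KO-labelled library (orange), 1 library each. Orc6, Gins3 and Rnaseh2a stand out, at 130.3 and 45.4, 22.7 and 8.83, and 99.7 and 28.9 FPKM.

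Log2 fold changes varied with position on the chromosome, and each gene's value is therefore set beside the median of its chromosomal neighbours, the other genes past the filter up to 5 Mb away. The 4 lower genes of chromosome 8 had neighbour medians of -1.39 for Asf1b, -1.45 for both Rnaseh2a and Orc6, which lie in the same neighbourhood, and -0.97 for Gins3. After subtraction their log2 fold changes were -0.46, -0.30, -0.053 and -0.30, so that 0 of the 4 remained more than 1.5-fold lower. E2f2 had a neighbour median of -0.12 and was -1.44 after subtraction, and with a pseudocount of 5 in place of 1 it was -0.97, inside 2-fold. Zwint had a neighbour median of 0.46 and was 0.57 after subtraction, no longer beyond 1.5-fold. Of the 9 other pathway genes on chromosome 8, 7 were lower, against 49.3% of all genes, and the median of the 9 was -0.84. The 132 on other chromosomes had a median of 0.0063. Rbl2, a chromosome 8 gene of the Rb family named after its values were seen, was 14.7 and 7.77 FPKM, a log2 fold change of -0.84, with a neighbour median of -1.01. Cenpn, of the centromere and kinetochore list and also on chromosome 8, went the other way. It was 12.3 and 21.0 FPKM, a log2 fold change of 0.73, with a neighbour median of 0.37.

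The members were spread over 17 chromosomes, and 4 of them lie on chromosome 8. None of the 4 had neighbours shifted as those of Asf1b were. Mcm5 had a neighbour median of -0.0098 and Gins4 of 0.077. Gins2 and Cdt1, which lie close together near the end of the chromosome and count among each other's neighbours, had neighbour medians of 0.34 and 0.33, beside their own log2 fold changes of 0.38 and 0.33. Cdk1 had the highest neighbour median of any member, 0.55, above its own 0.47, so that after subtraction the gene stood at -0.087. Of the 52 members, all with a neighbour median, 31 had a log2 fold change of the same sign as that median. Shares of all genes for this count and the next are not given. Neighbour medians beyond 0.25 in either direction were found for 6 members, all of them positive. These 6 genes, Mcm6, Cdt1, Gins2, Ccnb2, Cdk1 and Mki67, were all higher in the KO-labelled library. Gmnn, by contrast, had a neighbour median of 0.051 and was 0.34 after subtraction, and Rfc4 had -0.087 and was then 0.36, furthest up of the members. At the lower end, Rrm2 had a neighbour median of -0.15 and was -0.57 after subtraction, and Ccne2 had -0.17 and was -0.43, so that 0 members were more than 1.5-fold lower after subtraction, against 5.81% of all genes.

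Across the 52 members, Pearson's r of the log2 fold change and the neighbour median was 0.58, and Spearman's rho was 0.45. Without Cdk1 Pearson's r was 0.53 over 51 genes. Among the other pathway genes it was 0.81 over 141 and 0.56 over the 132 not on chromosome 8. Points in these correlations share the 2 libraries and, for near genes, the same neighbours, and the values are given as a description. No DNA was measured in these libraries, and what the neighbouring genes share was not tested.

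**Figure D5:**
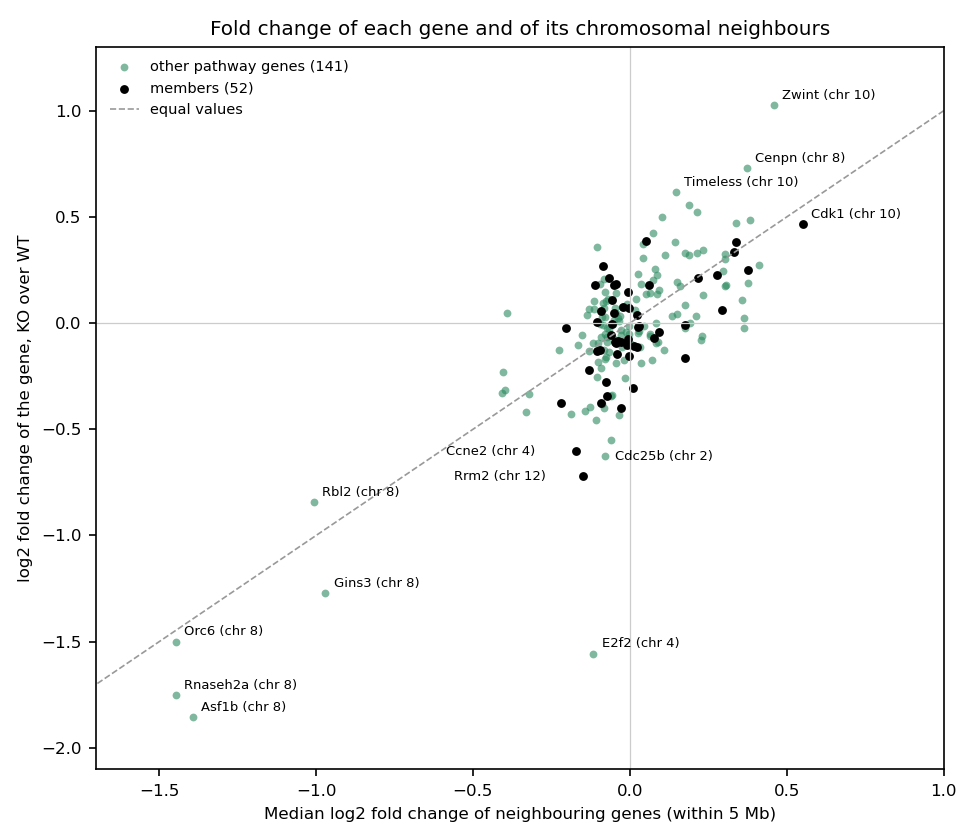
Log2 fold change of each member (black) and other pathway gene (green), on the vertical axis, against the median log2 fold change of the genes within 5 Mb, on the horizontal axis, with a dashed line of equal values. Cdk1 lies near the line at 0.55 and 0.47, the 4 lower chromosome 8 genes near its lower end, and E2f2 far from it at -0.12 and -1.56.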

How the data were processed

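RNA of C2C12 cells, 1 WT and 1 GNE KO library, was analysed. The label and the methods give different kits (an Illumina and an MGI stranded kit). Each deposited file holds a single value for every gene symbol, read here as FPKM. The file headers name no unit, and a TPM table cut to these genes cannot be told from it, which would rescale each library by a constant. Per the methods, STAR aligned trimmed reads to GRCm39 and RSEM quantified them. The submitters' processing notes list Trim Galore 0.6.6, STAR 2.7.9a, RSEM 1.3.3 and the builds GRCm38 and GRCh38.

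The tables have 21853 rows. For 24 repeats of a symbol the row of lower mean was dropped. Log2 fold changes used a pseudocount of 1, which understates the change of low genes, and a filter of a mean of at least 1 FPKM. The study's adjusted P values need replicates, so calls rest on the fold alone (2-fold, with 1.5-fold as a second threshold). The number of reads is unknown, and counting intervals are therefore not printed. Of 10542 genes, 10366 had a position in GENCODE vM39 on GRCm39, matched by symbol or RefSeq synonym, as were 2 older symbols of the lists. Since the sources name more than 1 build, positions are those of that annotation and not of the files. Motifs were exact matches on both strands.

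The members and lists were chosen with earlier results of these data known. Every member is named, with more detail for those beyond 1.5-fold, the 5 highest and 5 lowest, and the extremes of each role list, and of the other pathway genes those beyond 2-fold. The procedure was run on simulated data without noise, in which the planted changes all exceeded the 2-fold threshold. That run checks the code only and does not bear on noise between single libraries or on smaller changes. Alternatives were pseudocounts of 0.1 and 5, dropping the filter or raising it to 5 FPKM, scaling by the median of ratios or to a TPM-like total, and subtraction of the neighbour median. The tools were matplotlib 3.10.9, pandas 2.3.3, numpy 2.4.6 and scipy 1.17.1 in Python 3.11.15.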

Additional observations from a re-analysis of the deposited data

How the results depend on the processing

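With 1 library per line, leaving out a replicate was not possible. No paired analysis was possible because each line had a single library and no test was run. Counts are called moved past a factor of 1.5, medians outside the 95% order-statistic interval of their list, the difference of medians past a factor of 1.5, and single genes past the interquartile range of all genes. In lists of 3 to 8 genes this interval covers almost the whole list, so it can hardly show a move.

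The counts of 0 members beyond 2-fold in either direction and 0 members more than 1.5-fold higher held under each alternative run. The count of members more than 1.5-fold lower, 2, was 1 with a pseudocount of 5 (4.22% of all genes), 0 after subtraction of the neighbour median (5.81%) and 1 without Rrm2, a setting added once the values had been seen (7.49%). After subtraction the G1/S minus G2/M difference was -0.016, against -0.090, the median of all members -0.046, against -0.021, and that of the 3 transcription factors 0.11, against 0.0035. Of the other pathway genes, 0 were then more than 2-fold higher (2.64% of all genes), 1 was 2-fold lower or further down (2.65%), 0 were more than 1.5-fold higher (6.60%) and 1 was 1.5-fold lower or further down (5.81%). With a pseudocount of 5, 0 other pathway genes were more than 2-fold higher (0.968% of all genes) and 4 were more than 2-fold lower (1.67%), E2f2 being at -0.97. The sign changed for 8 of 52 members after subtraction, for 1 under each of the scalings, and for 0 under the other pseudocounts and filters. Why these values moved was not tested.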

Other observations

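Genes of homologous recombination and the DNA damage checkpoint, a list of 27 chosen after the values were seen, include many targets of E2F in dividing cells. All 27 passed the filter, 19 were higher and 8 lower in the KO-labelled library, against 50.7% and 49.3% of all genes, and their median log2 fold change was 0.11. Beyond 2-fold in either direction were 0 of the 27, against 2.84% higher and 3.43% lower among all genes. Chek1, the kinase that answers stalled forks, was 10.7 FPKM in WT and 14.2 FPKM in the KO-labelled library. Atm, the kinase that answers double-strand breaks, was 5.05 and 8.19 FPKM, a log2 fold change of 0.60. It was the only 1 of the 27 (3.70%) more than 1.5-fold higher, against 7.68% of all genes, and 0 were more than 1.5-fold lower, against 7.50%. Of the 8 lower genes, Xrcc2 was furthest down, at 10.5 and 8.27 FPKM, a log2 fold change of -0.31. Chek2 was also lower, at 9.17 and 7.66 FPKM, a log2 fold change of -0.23.

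Of 9 histone variant genes, also listed after the values were seen, 6 were higher and 3 lower, against 50.7% and 49.3% of all genes, with a median log2 fold change of 0.32. Beyond 2-fold on the higher side were 2 of the 9, against 2.84% of all genes, and on the lower side 0, against 3.43%. Many such variants are made outside S phase as well, and many, unlike the bulk of S phase histones, have mRNAs with a poly(A) tail. H2afx, which is phosphorylated at DNA breaks, was 88.6 and 191 FPKM, a log2 fold change of 1.10. H2afz was 701 and 932 FPKM, a log2 fold change of 0.41, and H1f0, a linker histone that accumulates in cells that stop dividing, was 136 and 264 FPKM. The other gene beyond 2-fold on the higher side was H2afy2, at 2.99 FPKM in the KO-labelled library and listed at 0 in WT. It passed the filter only through its value in the KO-labelled library. The 3 lower genes were H2afj, H2afv and H3f3a, at log2 fold changes of -0.57, -0.38 and -0.17. H2afj thus lay further from 0 than H2afz. The list is short and was made with the values seen, so 2 of the 9 is no measure of an excess. Neighbour medians were not set beside the genes of this list or of the recombination list. Shifts shared with chromosomal neighbours are therefore not shown for them.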
